A study of Caenorhabditis elegans with 15 samples.

Results

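The Hedgehog-related and patched-related genes of Caenorhabditis elegans were followed through the transcriptomes of worms fed an excess of sugar, of fat, or of both. A gene was taken as a member when the protein annotation of the deposited table named a C. elegans protein of the warthog (wrt), groundhog (grd), ground-like (grl), hog, patched-related (ptr) or patched (ptc) series, or quahog (qua-1). The rule used no measured value and found 75 of the 16196 genes of the table. They were 9 wrt, 12 grd and 28 grl genes, hog-1 and qua-1, 21 ptr genes and 3 ptc genes. The place of each member in the table's gene order matched its place in the genome annotation. A further 11 family genes of the annotation, wrt-1, grd-1, grd-3, grd-4, grd-5, grl-8, grl-15, grl-24, ptr-16, ptr-17 and ptr-25, were not analysed here.

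RNA was taken from whole bodies of wild-type (N2) worms at L4, the last larval stage, in 5 groups of 3 libraries. The resveratrol group was given sucrose at 400 mM, the saturated fatty acid stearic acid at 500 μg/mL and the plant polyphenol resveratrol, also at 500 μg/mL, the sucrose-stearic acid group received the same sucrose and stearic acid, the sucrose group and the stearic acid group received 1 of the 2, and the control group received none. The labels write the stearic acid and resveratrol doses in mg/mL, and the methods of the paper give μg/mL. Elsewhere the paper names the resveratrol of this comparison by a molar concentration that does not match that dose, so the resveratrol dose is not settled. Stearic acid was dissolved in ethanol and resveratrol in dimethyl sulfoxide, and the sources do not state whether the control worms received these solvents. The 3 libraries of a group are called biological replicates, but no source describes separate cultures, so the p values measure the spread between these libraries, which may in part be technical. Since whole worms were used, fewer cells of a type and less RNA per cell cannot be told apart. The paper also reports that high concentrations of sugar delayed the egg-laying period. Whether the groups, or single libraries, differed in the stage reached when RNA was taken was not tested.

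Nematodes have no clear counterpart of the secreted Hedgehog protein of flies and vertebrates, nor of its signal transducer Smoothened, but they hold a large set of genes related to Hedgehog and to its receptor Patched. The warthog, groundhog, ground-like, hog and quahog genes encode secreted proteins, each with its own type of N-terminal domain, and some also carry the self-splicing Hint module that in Hedgehog joins the protein to a sterol. The ptc and ptr genes encode membrane proteins with a sterol-sensing domain, and both sides of the family are best known in this worm for their roles in the hypodermis, in glia, in moulting and in the shaping of the cuticle. Many of these genes are switched on and off with each larval moult.

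In the deposited annotation, 37 members carried a ground-like domain (27 grl and 10 grd), 24 carried a patched family domain (all ptr and ptc genes) and 8 carried a Hint module, which were wrt-4, wrt-6, wrt-7, wrt-8, grd-2, grd-11, hog-1 and qua-1. Chromosome V held 29 of the 75 members. Levels are given as FPKM, fragment counts that the authors scaled to transcript length and to library size. In the control group, 15 members had a mean of at least 100 FPKM, 49 of at least 10 and 9 of less than 1. The 3 with the highest control means were the ground-like genes grl-23 (1106 ± 449 FPKM, SD, n = 3), grl-20 (954 ± 417) and grl-25 (489 ± 254), followed by the groundhog gene grd-10 (465 ± 182). The spread among these 4 was wider than the steps between grl-23 and grl-20 and between grl-25 and grd-10. Among the membrane proteins, ptr-23 (156 ± 26.6 FPKM) and ptc-1 (128 ± 19.8) had the highest control means.

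Libraries held between 19433436 and 21400063 counted fragments on genes, with a median of 20319650, and the members took from 0.363% to 0.792% of them. Libraries of 1 group could differ widely for this family. Control replicate 3 had the lowest value of its group in 14 of 14 members that fell in the groups with sucrose (median 0.517 of the group mean, in counts scaled to library size) and in 45 of 53 other tested members (median 0.824). In the sucrose-stearic acid group, replicate 3 was the lowest library in 11 of these 14 members (median 0.396) and in 44 of the other 53 (median 0.885), and replicate 2 was the highest in 11 of the 14. In the same 14 members, sucrose replicate 1 was the lowest of its group in 13 (median 0.498) and sucrose replicate 2 the highest in 13 (median 1.56), and resveratrol replicate 3 was the highest in 13 (median 1.46). Since every comparison with control uses the control libraries, several results below are also given without control replicate 3, with n = 2 controls. That library stood out by its low values in these same members. Larger falls, smaller p values and more calls without it are therefore a description and give no separate support for a fall. The summed FPKM of all members was 3553 to 4329 in the resveratrol group, 3444 to 4302 in the sucrose-stearic acid group, 3556 to 3862 in the sucrose group, 4061 to 4349 in the stearic acid group and 3863 to 7499.6 in the control group.

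**Figure D1:**
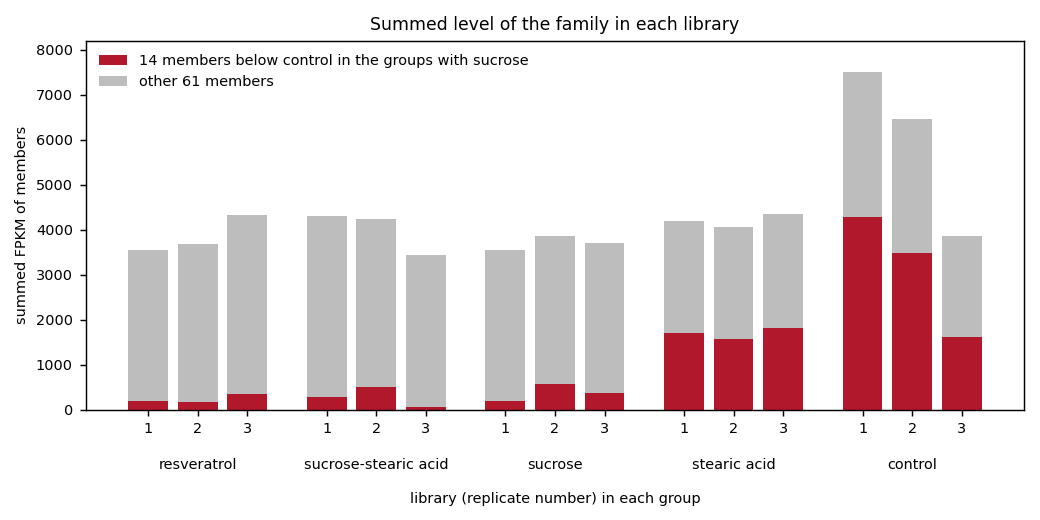
Summed FPKM of the 75 members in each library (vertical axis from 0), with the 14 members that were lower in the groups with sucrose in red and the other 61 in grey. The red share was 1.94% to 15.1% of the sum in the 9 libraries with sucrose, 38.7% to 41.7% in the stearic acid libraries and 41.8% to 57.1% in the control libraries.

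The first question was what excess sucrose did to the family. With sucrose, a set of secreted Hedgehog-related genes, most of them ground-like, was reduced to a small part of its control level, and 1 patched-related gene fell with them. In the sucrose group, 16 of 67 tested members were differentially expressed against control, 15 lower and 1 higher, where 9.18% of all 12745 tested genes were called, 5.4% lower and 3.78% higher. The threshold for a call was an adjusted p (edgeR's quasi-likelihood test, Benjamini-Hochberg over every tested gene) of at most 0.05 together with a change of 2-fold or more. The median log2 fold change was -0.03 over the members and -0.02 over all genes. In the sucrose-stearic acid group, 16 of 67 tested members were called (15 lower, 1 higher), where 9.57% of 12781 genes were, 5.26% lower and 4.31% higher. In the resveratrol group, 15 of 67 were called (14 lower, 1 higher), where 9.26% of 12768 genes were, 5.44% lower and 3.82% higher. The member called higher was ptr-13 each time. Without control replicate 3, each of the 3 comparisons called 17 members, 16 lower and 1 higher. The share of all genes called without that library was not counted, so the rise cannot be read as particular to the family. The 3 comparisons use the same 3 control libraries and are not independent of each other. Left out of the tests by the filter on low counts were 8 members in these comparisons, 6 of them grl genes, together with grd-8 and ptc-2, which is annotated as a pseudogene. Over the 4 comparisons with control, 49 members were tested throughout and never called. Among them were 19 of 21 tested ptr genes and 13 of 22 tested grl genes. The share of all genes never called was not counted.

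The members called lower against control in each of the 3 groups with sucrose were wrt-7, wrt-8, grd-2, grd-7, grd-9, grl-3, grl-9, grl-17, grl-19, grl-20, grl-23, grl-25, grl-26 and ptr-22. The groundhog gene grd-11 was called lower in the sucrose and sucrose-stearic acid groups only, and in the resveratrol group its log2 fold change was -1.59 ± 0.50 (SE, adjusted p = 0.0548). Mean FPKM of the 14 genes ran from 1.57% to 34.4% of the control mean in the resveratrol group (median 7.998%), from 3.40% to 27.4% in the sucrose-stearic acid group (median 10.1%) and from 4.02% to 40.9% in the sucrose group (median 12.3%). The lowest value in each of these groups was that of wrt-7, which rests on few counts. The next lowest was grl-17, at 4.35%, 5.47% and 8.03% in the same order. In the stearic acid group the same 14 ran from 32.4% to 140.3% (median 48.6%). Without control replicate 3 the medians were 6.35% in the resveratrol group, 7.97% in the sucrose-stearic acid group, 9.91% in the sucrose group and 40.5% with stearic acid alone, and all 14 were still called lower in each group with sucrose. For all 14, each library with sucrose lay below each control library, a separation that 16.6% of all tested genes showed downwards in the resveratrol comparison, 17.6% in the sucrose-stearic acid comparison and 17.6% in the sucrose comparison. These percentages describe genes that were chosen by their calls. Of the 14, 10 carry a ground-like domain and 3 a Hint module (wrt-7, wrt-8 and grd-2), and 9 lie on chromosome V.

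**Figure D2:**
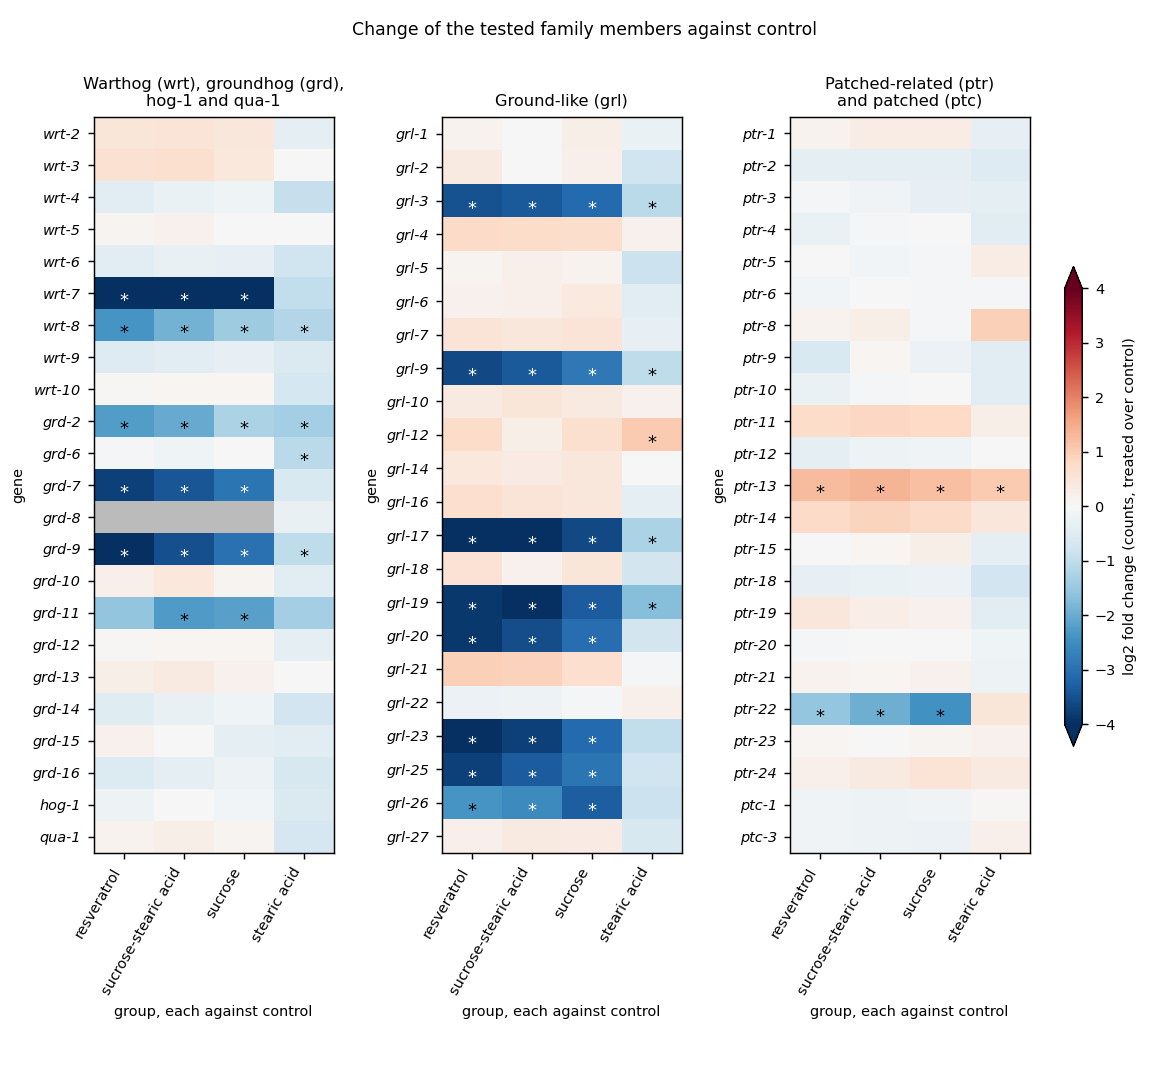
Log2 fold change of each tested member (rows) against control in the resveratrol, sucrose-stearic acid, sucrose and stearic acid groups (columns), from counts in edgeR, in red where higher and blue where lower than control. Asterisks mark an adjusted p of 0.05 or less with at least a 2-fold change, grey marks a comparison in which the gene was not tested, and colours saturate at 4 in either direction. Most dark blue cells belong to grd and grl genes and are paler in the stearic acid column, while ptr-13 is red in all 4 columns.

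The most abundant ground-like genes showed the pattern at the highest levels. The gene grl-23 (chromosome V, bases 12575191 to 12576897, minus strand in WBcel235) had 53.2, 59.2 and 100.3 FPKM in the resveratrol group, 90.0, 163 and 17.3 FPKM in the sucrose-stearic acid group, 70.5, 188 and 131 FPKM in the sucrose group, 577, 530.0 and 646 FPKM in the stearic acid group, against 1457, 1261 and 600.2 FPKM in the control group. Its 9 libraries with sucrose all lay below the stearic acid and control libraries, while control replicate 3 fell within the range of the stearic acid group. Against control, its log2 fold change was -4.06 ± 0.37 in the resveratrol group (SE, adjusted p = 5.19e-05), -3.73 ± 0.67 in the sucrose-stearic acid group (0.00359) and -3.11 ± 0.42 in the sucrose group (0.00105). In stearic acid alone it was -0.98 ± 0.25 (adjusted p = 0.0181), just short of 2-fold, and without control replicate 3 it was -1.29 ± 0.11 (adjusted p = 3.09e-06).

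A closely similar order of libraries was seen for grl-20 (chromosome IV, bases 2126136 to 2128861, minus strand), which had 61.9, 44.4 and 119.4 FPKM in the resveratrol group, 86.8, 170.2 and 14.9 FPKM in the sucrose-stearic acid group, 63.6, 196 and 111 FPKM in the sucrose group, 549, 588 and 626 FPKM in the stearic acid group, against 1302, 1067 and 492 FPKM in the control group. Control replicate 3 was lower than all 3 stearic acid libraries, and the change in stearic acid alone did not pass the test (-0.75 ± 0.28, adjusted p = 0.0724). Without that low library the change was -1.08 ± 0.11 (adjusted p = 1.58e-05), which does not replace the result with all 3 controls. With sucrose the log2 fold change was -3.06 ± 0.45 (adjusted p = 0.00168). For grl-25 (chromosome III, bases 8962293 to 8965707, plus strand), a ground-like gene with no domain listed in the table, the libraries gave 29.6, 25.9 and 56.2 FPKM in the resveratrol group, 49.1, 90.9 and 9.08 FPKM in the sucrose-stearic acid group, 30.2, 93.2 and 66.5 FPKM in the sucrose group, 279.6, 229.8 and 259 FPKM in the stearic acid group, against 704, 555 and 208 FPKM in the control group. Here too the groups with sucrose stood clear of both other groups, and control replicate 3 lay below the stearic acid libraries. Its change in stearic acid alone was -0.79 ± 0.31 (adjusted p = 0.0874) and, without control replicate 3, -1.16 ± 0.12 (adjusted p = 1.3e-05).

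The ground-like genes grl-9, grl-17 and grl-19 were called lower in stearic acid alone as well. For grl-17 (chromosome V, bases 13561973 to 13563941, minus strand) the values were 4.47, 2.999 and 10.5 FPKM in the resveratrol group, 5.203, 13.8 and 3.56 FPKM in the sucrose-stearic acid group, 5.59, 20.4 and 7.04 FPKM in the sucrose group, 57.8, 46.8 and 60.6 FPKM in the stearic acid group, against 194, 144 and 73.6 FPKM in the control group. All stearic acid libraries lay below all control libraries and above all libraries with sucrose. Its log2 fold change was -1.25 ± 0.27 with stearic acid alone (SE, adjusted p = 0.00744) and -3.61 ± 0.53 with sucrose alone (0.0016). The gene grl-19 (chromosome IV, bases 251908 to 252554, minus strand) had 7.44, 7.57 and 21.8 FPKM in the resveratrol group, 7.10, 19.3 and 3.28 FPKM in the sucrose-stearic acid group, 6.82, 28.7 and 10.8 FPKM in the sucrose group, 62.7, 36.9 and 50.5 FPKM in the stearic acid group, against 218, 169 and 76.7 FPKM in the control group. No stearic acid library overlapped a control library, and its change in stearic acid alone, -1.72 ± 0.35 (adjusted p = 0.00484), was the most negative of any called member in that comparison. In grl-9 (chromosome V, bases 6730216 to 6731694, minus strand) the libraries had 11.7, 9.51 and 20.3 FPKM in the resveratrol group, 17.7, 31.9 and 4.08 FPKM in the sucrose-stearic acid group, 8.45, 32.4 and 17.2 FPKM in the sucrose group, 72.6, 53.4 and 63.5 FPKM in the stearic acid group, against 241, 157 and 77.4 FPKM in the control group. The stearic acid libraries stood between the groups with sucrose and the controls in FPKM, but in counted fragments, 1771, 1530 and 1907 in the stearic acid group, against 5094, 3696 and 1802 in the control group, they overlapped the controls. The log2 fold change was -1.03 ± 0.28 against control (adjusted p = 0.0215), a call that only 4 of its 15 alternatives kept, with an adjusted p of up to 0.14. Without control replicate 3 the change in stearic acid alone was -1.35 ± 0.13 for grl-9, -1.56 ± 0.14 for grl-17 and -2.05 ± 0.21 for grl-19.

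Lower ground-like levels were held by grl-3 and grl-26. In grl-3 the mean fell to 3.95 FPKM in the resveratrol group, 4.27 FPKM in the sucrose-stearic acid group and 4.47 FPKM in the sucrose group, against 42.7 FPKM in the control group. In grl-26 only 1 to 8 fragments were counted per library with sucrose, against 19 to 29 per control library, so its size of change is imprecise.

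Among the groundhog genes, grd-7 (chromosome X, bases 7267870 to 7269479, minus strand) had 1.43, 1.33 and 2.28 FPKM in the resveratrol group, 2.16, 3.38 and 0.919 FPKM in the sucrose-stearic acid group, 1.69, 3.42 and 2.73 FPKM in the sucrose group, 12.6, 10.5 and 11.8 FPKM in the stearic acid group, against 30.4, 23.1 and 9.06 FPKM in the control group. Control replicate 3 lay below the stearic acid libraries, and each library with sucrose lay below both groups. Its log2 fold change in the sucrose group was -2.92 ± 0.41 (SE, adjusted p = 0.0013). In stearic acid alone it was -0.62 ± 0.30 (adjusted p = 0.145) and, without control replicate 3, -0.97 ± 0.11 (adjusted p = 2.87e-05). For grd-9 (chromosome V, bases 5895321 to 5898602, plus strand) the libraries gave 0.896, 0.402 and 0.917 FPKM in the resveratrol group, 1.28, 1.69 and 0.221 FPKM in the sucrose-stearic acid group, 0.681, 2.34 and 1.35 FPKM in the sucrose group, 6.41, 5.16 and 5.58 FPKM in the stearic acid group, against 15.2, 12.8 and 7.42 FPKM in the control group. All 3 stearic acid libraries were below the controls (-1.02 ± 0.23, adjusted p = 0.00986), a call that 7 of 15 alternatives kept, and the libraries with sucrose were lower again (-2.99 ± 0.42 in the sucrose group, adjusted p = 0.00122).

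The groundhog gene grd-2 (chromosome V, bases 20609794 to 20613929, plus strand), which carries both a ground-like domain and a Hint module, had another order. It had 0.815, 0.915 and 0.895 FPKM in the resveratrol group, 0.960, 0.909 and 1.08 FPKM in the sucrose-stearic acid group, 1.49, 1.92 and 1.59 FPKM in the sucrose group, 1.58, 1.60 and 1.66 FPKM in the stearic acid group, against 4.22, 4.36 and 3.63 FPKM in the control group. Sucrose alone and stearic acid alone gave similar levels, and the log2 fold change between the sucrose and stearic acid groups was 0.06 ± 0.17 (SE, adjusted p = 0.853). With both together the level was lower still than in stearic acid alone (-0.69 ± 0.19, adjusted p = 0.0162).

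The 2 warthog genes of the set, wrt-7 (chromosome V, bases 15334754 to 15337505, minus strand) and wrt-8 (chromosome V, bases 15342054 to 15344581, minus strand), are neighbours, with 4549 bases between them, and both carry a Hint module. For wrt-8 the libraries gave 0.542, 0.899 and 0.659 FPKM in the resveratrol group, 1.03, 0.778 and 1.03 FPKM in the sucrose-stearic acid group, 1.06, 1.54 and 1.27 FPKM in the sucrose group, 1.19, 1.84 and 1.52 FPKM in the stearic acid group, against 3.67, 4.23 and 2.44 FPKM in the control group. Stearic acid and sucrose alone again overlapped, and against control the change was -1.18 ± 0.28 (SE, adjusted p = 0.0118) with stearic acid alone and -1.43 ± 0.28 (0.00695) with sucrose alone. For wrt-7, counted fragments are given in place of FPKM, with 0, 2 and 3 counts in the resveratrol group, 4, 12 and 0 counts in the sucrose-stearic acid group, 3, 12 and 3 counts in the sucrose group, 88, 64 and 98 counts in the stearic acid group, against 204, 214 and 72 counts in the control group. It was called lower in all 3 groups with sucrose, but the counts there are too few for a fold change to be given.

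**Figure D3:**
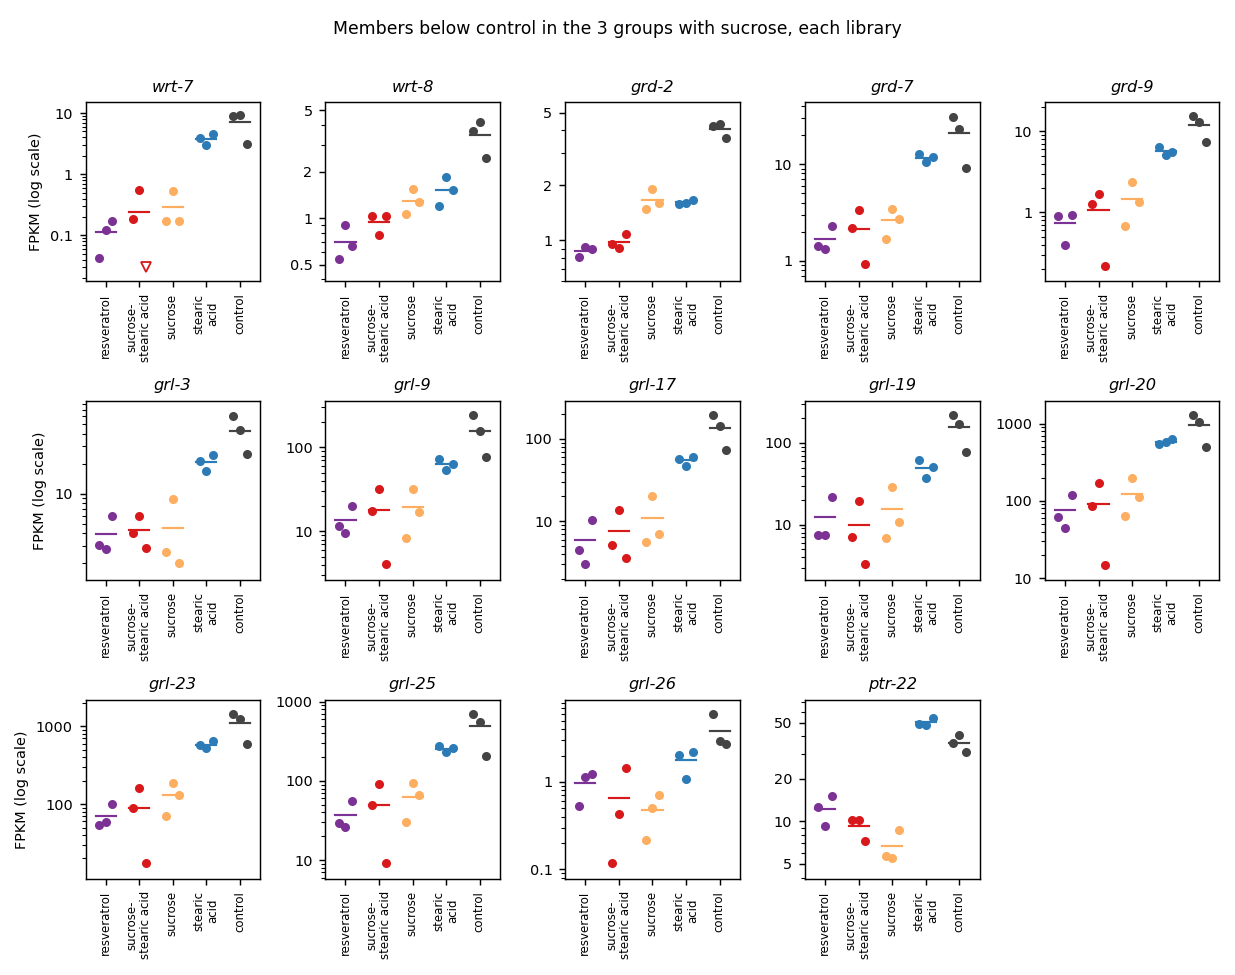
FPKM on a log scale in each library (points) and the group mean (lines) for the 14 members called lower in each group with sucrose, with the 5 groups along the horizontal axis. The open triangle in wrt-7 stands for a library at 0. In 13 of the panels the stearic acid libraries lie at 32.4% to 61.6% of the control mean on average, and in ptr-22 they lie above the controls.

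Exons of 27 members share bases with another gene, in most cases on the opposite strand. Exons of grl-20 overlap those of glb-7, exons of grl-19 those of aass-1, exons of grl-3 those of deg-3, exons of grd-9 those of srd-16, exons of ptr-8 those of sra-10 and exons of wrt-2 those of pccb-1. The protein-coding gene ZC487.1 overlaps exons of grl-9, C56A3.8 those of grl-17 and F46H5.2 those of grd-7. Such partners also include noncoding genes opposite grd-7, grl-9, grl-17, grl-23 and grl-25. No partner of either kind was found for wrt-7, wrt-8, grd-2, grd-6, ptr-13 and ptr-22. The use of strand in the counting was not stated, so reads of the partners cannot be told apart.

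The members were then compared between the groups with sucrose and stearic acid alone, which does not involve the control libraries. In the sucrose group against the stearic acid group, 14 of 66 tested members were called (13 lower, 1 higher), where 7.92% of 12677 genes were, 5.29% lower and 2.63% higher. In the sucrose-stearic acid group against the stearic acid group, 13 of 66 were called (12 lower, 1 higher), where 9.95% of 12714 genes were, 6.2% lower and 3.75% higher. Both comparisons share the stearic acid libraries. In each of them, 11 of the 14 genes above were called lower, and the other 3 were wrt-8, grd-2 and grl-26, of which grl-26 was not tested there. The 14 were chosen for low values in the same sucrose libraries, so the 11 are a description. The groundhog gene grd-8 was called lower in both as well, on counts of 3, 1 and 0 in the sucrose-stearic acid group, 4, 6 and 2 in the sucrose group and 20, 27 and 13 in the stearic acid group. The log2 fold change of the sucrose group over the stearic acid group was -2.15 ± 0.29 for grl-23 (SE, adjusted p = 0.000571), -2.33 ± 0.31 for grl-20 (0.00051) and -2.32 ± 0.20 for grd-7 (4.4e-05).

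The lowest adjusted p of any member in the sucrose to stearic acid comparison was that of ptr-22, a patched-related gene (chromosome V, bases 18919221 to 18931379, minus strand). It had 12.6, 9.21 and 15.2 FPKM in the resveratrol group, 10.2, 10.3 and 7.23 FPKM in the sucrose-stearic acid group, 5.73, 5.52 and 8.74 FPKM in the sucrose group, 48.9, 48.2 and 53.9 FPKM in the stearic acid group, against 36.04, 40.8 and 30.8 FPKM in the control group. All libraries with sucrose lay below the other 2 groups, and all stearic acid libraries lay above all controls. The log2 fold change was -2.90 ± 0.17 in the sucrose group over the stearic acid group (SE, adjusted p = 4.58e-06) and -2.41 ± 0.21 over control (7.75e-05). In stearic acid alone it was 0.48 ± 0.13 over control (adjusted p = 0.0238), less than 2-fold. Control replicate 3 was the lowest control here too, but it was closer to the other controls than in the secreted genes above.

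The second question was what stearic acid did alone. Here 10 of 68 tested members were called against control, 8 lower and 2 higher, where 7.88% of 12772 genes were, 4.48% lower and 3.41% higher. The shift was broader than these calls: 20 members were lower and 5 higher at an adjusted p of 0.05 or less whatever the fold, as were 22.6% of all genes. The median log2 fold change was -0.66 over the 45 tested secreted members, -0.04 over the 23 tested ptr and ptc genes and -0.03 over all genes. By series it was -0.69 for wrt, -0.64 for grd, -0.67 for grl and -0.16 for ptr genes. The count depended on single libraries. Without control replicate 3 it was 14 (14 lower, 0 higher), without control replicate 1 it was 5, without stearic acid replicate 2 it was 6 and without stearic acid replicate 3 it was 5. The share of all genes called in these fits was not counted. In at least 1 of the 6 fits that left out a library, wrt-8, grd-9, grl-9, grl-12, grl-17 and ptr-13 lost the call, without a change of direction. Over all 15 alternatives, grd-6 and grl-19 kept their call in 15, grd-2 in 14, ptr-13 in 13, grl-17 in 12, wrt-8 in 10, grl-12 in 8, grd-9 in 7 and grl-9 in 4.

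Outside the 14 genes above, 12 members were lower in stearic acid alone at an adjusted p of 0.05 or less: wrt-4, wrt-6, wrt-10, grd-6, grd-12, grd-14, grl-5, grl-16, qua-1, ptr-2, ptr-4 and ptr-18. Their mean FPKM was 43.1% to 76.5% of the control mean in the stearic acid group (median 61.2%). With sucrose it was 75.6% to 159.3% in the resveratrol group (median 103%) and 71.8% to 159.7% in the sucrose-stearic acid group (median 105%). In the sucrose group it was 78.0% to 133.7% (median 103%), so single genes lay on either side of control. The value of 159.7% was that of grd-14, which stood at 80.9% in counts scaled to library size. In the sucrose group over the stearic acid group, 11 of the 12 were higher at an adjusted p of 0.05 or less, which 24.3% of all genes reached in either direction, and ptr-2 had a log2 fold change of 0.14 ± 0.10 (SE, adjusted p = 0.377). The 12 were chosen for low values in the stearic acid libraries that this comparison shares, so the 11 are a description. Only grd-6 passed the 2-fold minimum against control.

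For grd-6 (chromosome V, bases 9221866 to 9224354, plus strand) the libraries gave 16.5, 18.4 and 22.9 FPKM in the resveratrol group, 21.1, 20.9 and 15.2 FPKM in the sucrose-stearic acid group, 17.6, 17.2 and 18.3 FPKM in the sucrose group, 7.29, 7.76 and 7.60 FPKM in the stearic acid group, against 17.9, 17.8 and 16.8 FPKM in the control group. The stearic acid libraries were close together and apart from all other 12 libraries. The log2 fold change was -1.09 ± 0.14 over control (SE, adjusted p = 0.000201), and the sucrose group exceeded the stearic acid group by 1.08 ± 0.10 (adjusted p = 6.6e-05), which was the 1 member called higher in that comparison. In the warthog gene wrt-10 (chromosome II, bases 7533262 to 7534563, minus strand) the values were 111, 118 and 130.4 FPKM in the resveratrol group, 121, 127 and 117 FPKM in the sucrose-stearic acid group, 127, 122 and 118 FPKM in the sucrose group, 77.3, 66.7 and 70.1 FPKM in the stearic acid group, against 129, 117 and 104 FPKM in the control group. Again every stearic acid library lay below every other library, with a log2 fold change of -0.69 ± 0.14 over control (adjusted p = 0.00433).

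Quahog, qua-1 (chromosome II, bases 8198803 to 8204004, plus strand), whose loss disturbs moulting, had 43.5, 48.6 and 58.3 FPKM in the resveratrol group, 56.2, 56.4 and 41.4 FPKM in the sucrose-stearic acid group, 52.4, 56.0 and 53.2 FPKM in the sucrose group, 30.5, 32.9 and 33.5 FPKM in the stearic acid group, against 60.3, 48.2 and 37.02 FPKM in the control group. The stearic acid libraries lay below all others, and control replicate 3 was the nearest to them. Its log2 fold change in stearic acid alone was -0.68 ± 0.17 (SE, adjusted p = 0.0151) and, without control replicate 3, -0.85 ± 0.11 (adjusted p = 0.000127). The other single-gene member, hog-1, had a change of -0.58 ± 0.26 in stearic acid alone (adjusted p = 0.125), and its stearic acid libraries, 16.6, 11.8 and 17.5 FPKM, overlapped the controls, 27.6, 24.1 and 13.7 FPKM. In the sucrose group hog-1 had 18.9, 19.5 and 22.7 FPKM (-0.12 ± 0.26, adjusted p = 0.785).

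The third question was whether sucrose and stearic acid together gave the sum of their single changes. The interaction is the change in the sucrose-stearic acid group less both single changes, on the log2 scale, over 12 libraries without the resveratrol group. It had an adjusted p of 0.05 or less in 11 of 69 tested members, 7 above 0 and 4 below, where 15.6% of 13094 genes had one, 7.05% above 0 and 8.59% below, so the share in the family was about that of all genes. Without control replicate 3 the count was 21 (18 above 0, 3 below), and without stearic acid replicate 3 it was 6, with the share of all genes not counted in either fit. The 7 above 0 were wrt-4, wrt-6, wrt-10, grd-6, grl-5, qua-1 and ptr-18, all of them lower in stearic acid alone, a change that is itself a term of the interaction. The patched-related ptr-18, which clears the ground-like protein GRL-7 from outside the hypodermis by endocytosis, had 29.5, 27.7 and 23.2 FPKM in the sucrose-stearic acid group, 25.8, 28.2 and 29.6 FPKM in the sucrose group, 19.2, 20.9 and 20.5 FPKM in the stearic acid group and 37.7, 33.6 and 27.7 FPKM in the control group. Its lowest values were the 3 stearic acid libraries. In grl-5 the interaction was 0.90 ± 0.21 (SE, adjusted p = 0.0121), and the sucrose-stearic acid group had 131, 137 and 116 FPKM, against 55.2, 51.7 and 56.2 FPKM in the stearic acid group. This was the 1 member called higher in that pair of groups (1.04 ± 0.10, adjusted p = 9.63e-06). In the 14 genes that fell with sucrose the interaction had an adjusted p of 0.116 (grd-2) or more, with standard errors from 0.24 (grd-2) to 1.08 (wrt-7). Of 20 alternatives, among them leaving out each of the 12 libraries, the interaction still passed in all 20 for wrt-4, wrt-6 and grd-6, in 19 for wrt-10, grl-5 and ptr-13, in 17 for ptr-8 and ptr-18, in 15 for ptr-24, in 11 for grl-12 and in 7 for qua-1. Adjusted p values reached 0.0625 for ptr-18, 0.0607 for ptr-8, 0.0605 for ptr-24, 0.0905 for grl-12 and 0.20 for qua-1, so the interaction of qua-1 and of grl-12 in particular is not secure.

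**Figure D4:**
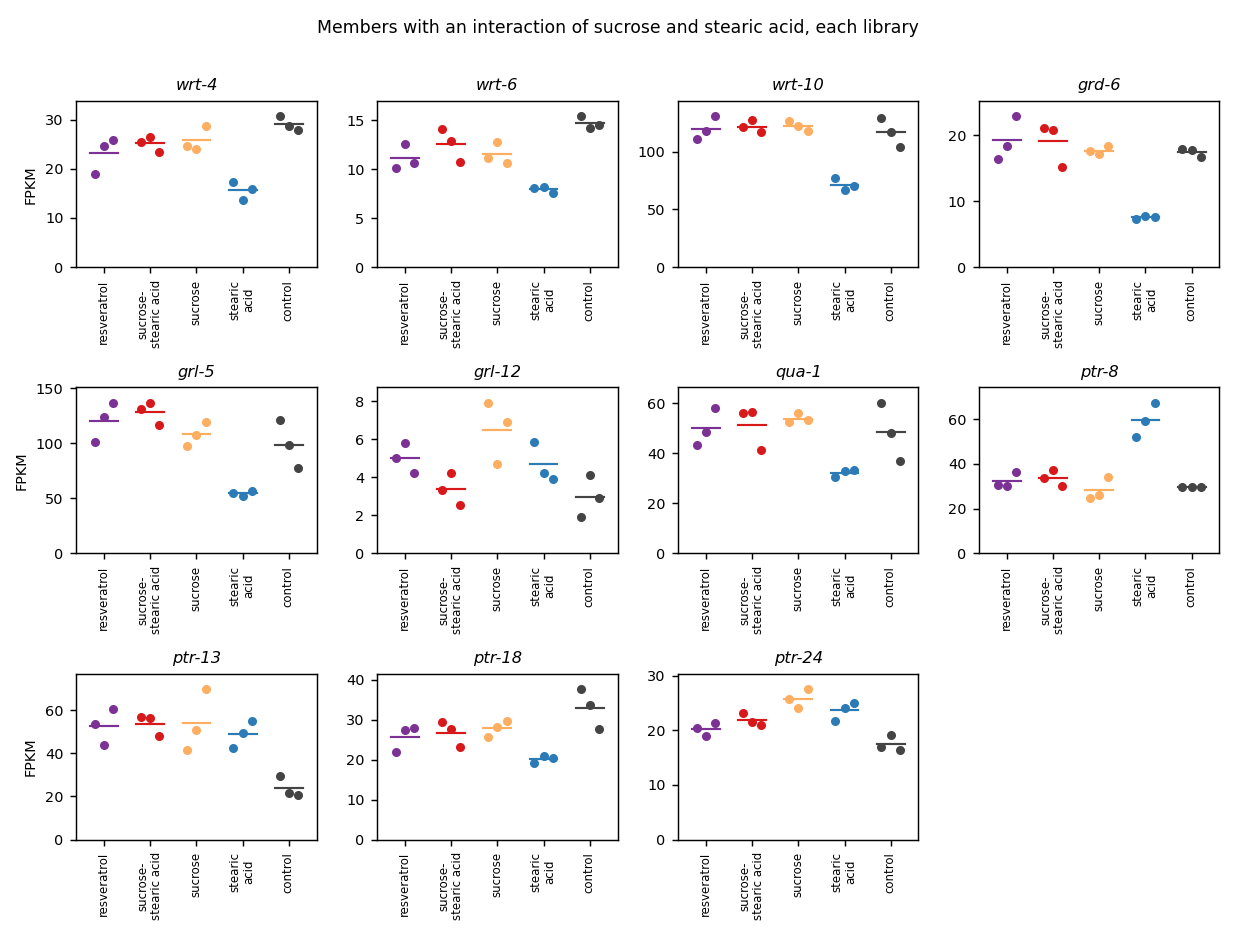
FPKM in each library (points, vertical axis from 0) and the group mean (lines) for the 11 members with an interaction of sucrose and stearic acid at an adjusted p of 0.05 or less. The resveratrol group is shown beside the 4 groups that entered the test. In the 7 members above 0 (wrt-4, wrt-6, wrt-10, grd-6, grl-5, qua-1 and ptr-18) the 3 stearic acid libraries are the lowest of all 15, and in ptr-8 they are the highest.

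The interaction lay below 0 in grl-12, ptr-8, ptr-13 and ptr-24. In ptr-8 the libraries had 30.5, 29.9 and 36.5 FPKM in the resveratrol group, 33.5, 37.1 and 30.0 FPKM in the sucrose-stearic acid group, 24.7, 25.8 and 33.9 FPKM in the sucrose group, 51.9, 59.3 and 67.3 FPKM in the stearic acid group, against 29.6, 29.6 and 29.7 FPKM in the control group. Stearic acid alone stood above all other libraries, by 0.95 ± 0.12 over control (SE, adjusted p = 0.000186), a little under 2-fold, and the sucrose group was lower than the stearic acid group by a log2 fold change of -1.04 ± 0.14 (0.000496). In grl-12, where 19 to 63 fragments were counted per library, the stearic acid group was called higher than control (1.04 ± 0.33, adjusted p = 0.0434).

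The gene ptr-13 (chromosome II, bases 11156589 to 11162481, minus strand) was the only member called higher than control in all 4 treated groups. It had 53.9, 44.1 and 60.8 FPKM in the resveratrol group, 57.2, 56.3 and 48.2 FPKM in the sucrose-stearic acid group, 41.6, 50.9 and 70.1 FPKM in the sucrose group, 42.6, 49.5 and 55.0 FPKM in the stearic acid group, against 29.5, 21.4 and 20.7 FPKM in the control group. Every treated library lay above every control library. The log2 fold change was 1.26 ± 0.14 in the resveratrol group (SE, adjusted p = 0.00015), 1.35 ± 0.13 in the sucrose-stearic acid group (7.98e-05), 1.21 ± 0.19 with sucrose alone (0.00228) and 1.05 ± 0.13 with stearic acid alone (0.000123). The interaction was -0.93 ± 0.22 (0.0139). The change stayed just under 2-fold without sucrose replicate 3 in the sucrose group (0.95) and without control replicate 3 in the stearic acid group (0.99).

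Other members were moderately higher with sucrose. At an adjusted p of 0.05 or less, wrt-2, grl-4, grl-16, grl-21, ptr-11, ptr-13 and ptr-14 were higher than control in all 3 groups with sucrose, and of these only ptr-13 reached 2-fold. In the resveratrol group 8 of 67 tested members were higher at that adjusted p, where 1180 of 12768 genes were. In the sucrose-stearic acid group 8 of 67 were, where 1402 of 12781 genes were. In the sucrose group 9 of 67 were, where 1227 of 12745 genes were. The shares of the family were near those of all genes, so the genes below are described singly. In either direction, 17.7% of all genes passed in the resveratrol group, 19.9% in the sucrose-stearic acid group and 18.4% in the sucrose group. The ground-like gene grl-21 (chromosome IV, bases 10737474 to 10738191, plus strand), which together with ptr-24 has been placed in the control of mitochondrial shape and fat storage by bacterial metabolites, had 149, 169 and 179 FPKM in the resveratrol group, 188, 176 and 118 FPKM in the sucrose-stearic acid group, 118, 139 and 110.3 FPKM in the sucrose group, 78.3, 62.0 and 85.5 FPKM in the stearic acid group, against 87.4, 75.5 and 61.4 FPKM in the control group. All libraries with sucrose lay above those of the other 2 groups, which overlapped. Its log2 fold change was 0.96 ± 0.16 in the resveratrol group (SE, adjusted p = 0.00214), 0.93 ± 0.19 in the sucrose-stearic acid group (0.00832), 0.68 ± 0.18 with sucrose alone (0.0256) and -0.07 ± 0.19 with stearic acid alone (0.82). Its proposed partner ptr-24 had 20.4, 19.02 and 21.4 FPKM in the resveratrol group, 23.1, 21.6 and 21.04 FPKM in the sucrose-stearic acid group, 25.6, 24.1 and 27.6 FPKM in the sucrose group, 21.7, 24.2 and 25.04 FPKM in the stearic acid group, against 16.9, 19.2 and 16.3 FPKM in the control group. The sucrose libraries were the highest group on average. Against control, its log2 fold change was 0.22 ± 0.13 in the resveratrol group (adjusted p = 0.294), 0.37 ± 0.12 in the sucrose-stearic acid group (0.0678), 0.54 ± 0.13 with sucrose alone (0.0158) and 0.35 ± 0.13 with stearic acid alone (0.0733).

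The ground-like genes grl-16 and grl-7 are abundant members. In grl-16 (chromosome I, bases 572173 to 575120, minus strand) the libraries gave 305, 366 and 339 FPKM in the resveratrol group, 325, 321 and 255 FPKM in the sucrose-stearic acid group, 301, 294 and 253 FPKM in the sucrose group, 155, 161 and 165 FPKM in the stearic acid group, against 208, 229.6 and 197 FPKM in the control group. Each library with sucrose lay above each control library, and each stearic acid library lay below. The change was 0.45 ± 0.10 with sucrose alone (SE, adjusted p = 0.0129) and -0.35 ± 0.11 with stearic acid alone (0.0394). In grl-7 the values were 181, 211 and 231 FPKM in the resveratrol group, 216, 212 and 158 FPKM in the sucrose-stearic acid group, 190.2, 187 and 206 FPKM in the sucrose group, 109.7, 104 and 118.6 FPKM in the stearic acid group, against 152, 138 and 117 FPKM in the control group. The libraries with sucrose lay above all others. Its change passed the test in the resveratrol group (0.52 ± 0.14, adjusted p = 0.0249) and the sucrose group (0.53 ± 0.12, 0.0141), and it was 0.46 ± 0.15 in the sucrose-stearic acid group (0.0555). The warthog gene wrt-2 had 42.8, 48.6 and 54.1 FPKM in the resveratrol group, 54.01, 52.7 and 43.4 FPKM in the sucrose-stearic acid group, 42.5, 44.0 and 43.7 FPKM in the sucrose group, 23.4, 21.3 and 24.9 FPKM in the stearic acid group, against 34.8, 32.8 and 30.5 FPKM in the control group. Sucrose libraries were above and stearic acid libraries below the controls, and the sucrose group exceeded the stearic acid group by 0.81 ± 0.09 (0.000149).

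**Figure D5:**
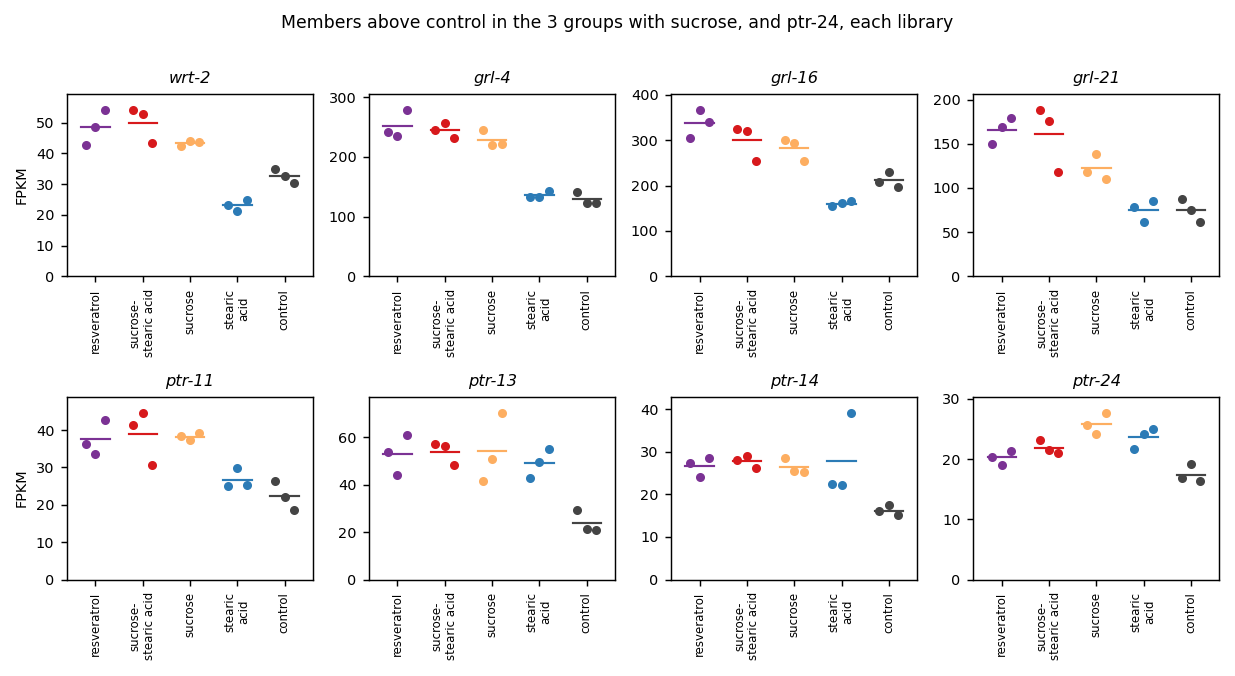
FPKM in each library (points, vertical axis from 0) and the group mean (lines) for the 7 members higher than control at an adjusted p of 0.05 or less in all 3 groups with sucrose, and for ptr-24. The mean in the groups with sucrose was 133% to 227% of the control mean over the 7 genes, and in wrt-2 and grl-16 the stearic acid libraries are the lowest.

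Several of the most abundant members were not called against control in any group. The neighbouring groundhog genes grd-13 and grd-10 (chromosome IV, bases 3441055 to 3441841, plus strand) lie 1548 bases apart. In grd-10 the values were 642, 601 and 785 FPKM in the resveratrol group, 886, 600.3 and 753 FPKM in the sucrose-stearic acid group, 564, 550.4 and 574 FPKM in the sucrose group, 432, 433 and 383 FPKM in the stearic acid group, against 611, 524 and 262 FPKM in the control group. Control replicate 3 was far below the other controls, and the groups overlapped (0.11 ± 0.28 in the sucrose group, SE, adjusted p = 0.821). For grd-13 the changes ran from -0.01 in the stearic acid group to 0.36 in the sucrose-stearic acid group, with no adjusted p under 0.32. In grd-14 FPKM and counts disagreed. Its mean FPKM was 294 in the sucrose group and 224 in the control group, a log2 ratio of 0.39, while the log2 fold change of its counts was -0.18 ± 0.25, and a gap of over 0.5 between the scales was found in 4 of 269 gene and comparison pairs, all in grd-14 and wrt-7. The warthog gene wrt-5, needed in embryos, had log2 fold changes of -0.02 in the sucrose group to 0.16 in the sucrose-stearic acid group, with SE from 0.18 to 0.21.

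The patched and patched-related genes with the best known functions changed by less than 2-fold against control. The patched gene ptc-1 (chromosome II, bases 7893222 to 7900515, plus strand), which acts in the germ line in the division of its syncytium, had 112, 121 and 111 FPKM in the resveratrol group, 107, 111 and 108 FPKM in the sucrose-stearic acid group, 118, 111 and 112 FPKM in the sucrose group, 117, 139.9 and 135 FPKM in the stearic acid group, against 117, 115 and 151 FPKM in the control group. The sucrose-stearic acid libraries lay just below the controls and the other groups overlapped them, and the log2 fold changes ran from -0.19 in the sucrose-stearic acid group to 0.04 in the stearic acid group, with SE of 0.10 to 0.13. The essential gene ptc-3 had 50.7, 47.3 and 61.0 FPKM in the resveratrol group, 53.0, 56.2 and 41.8 FPKM in the sucrose-stearic acid group, 49.1, 47.4 and 50.5 FPKM in the sucrose group, 62.8, 67.8 and 62.1 FPKM in the stearic acid group, against 68.3, 58.6 and 49.3 FPKM in the control group. Its changes against control did not pass the test, but the sucrose group was lower than the stearic acid group by a log2 fold change of -0.44 ± 0.08 (SE, adjusted p = 0.00287). The pseudogene ptc-2 had at most 0.127 FPKM in any library. In ptr-23, the most abundant ptr gene, the values were 166, 146 and 171 FPKM in the resveratrol group, 154, 169.8 and 124 FPKM in the sucrose-stearic acid group, 159.8, 171 and 174 FPKM in the sucrose group, 174, 197 and 172 FPKM in the stearic acid group, against 175, 167 and 125 FPKM in the control group, and the groups overlapped. In ptr-4 the stearic acid libraries, 40.5, 39.9 and 38.9 FPKM, lay below the controls, 60.3, 53.5 and 43.5 FPKM (-0.45 ± 0.14, adjusted p = 0.0328). In ptr-2, which is needed in embryos, the stearic acid libraries, 50.9, 53.9 and 48.5 FPKM, also lay below the controls, 58.7, 62.9 and 90.99 FPKM (-0.52 ± 0.16, adjusted p = 0.035), and control replicate 3 was here the highest library of all.

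The last comparisons asked what stearic acid added to sucrose and what resveratrol added to both. In the sucrose-stearic acid group against the sucrose group, 0 of 64 tested members were called by edgeR's quasi-likelihood test, where 0.215% of 12582 genes were. DESeq2 called 0 members, and 2 had an unadjusted p under 0.05, where 12.9% of all genes had one. They were grd-2 (-0.75 ± 0.19, SE) and ptr-22 (0.47 ± 0.20). In the resveratrol group against the sucrose-stearic acid group, 0 of 64 were called by edgeR, where 0.0159% of 12591 genes were, DESeq2 called 0, and 0 had an unadjusted p under 0.05, where 4.39% of all genes had one. The log2 fold change with resveratrol was -0.33 ± 0.58 for grl-23 and -0.29 ± 0.65 for grl-20 (SE), errors too wide to limit the change of either gene closely. For ptr-13 it was -0.08 ± 0.11 and for grl-21 it was 0.04 ± 0.15.

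Genes that work beside the family were described from lists, with no test of the list. Of 12 sterol-sensing and Hedgehog-route genes outside the family, 10 were measured. They include che-14 (related to Dispatched), ncr-1 and ncr-2 (related to the Niemann-Pick C1 protein), daf-6 (first named ptr-7) and tra-1 (the Gli homologue). The patched-domain gene ptd-2 was called higher in the sucrose-stearic acid group against control (1.33 ± 0.37, SE, adjusted p = 0.0318). By the adjusted p without the 2-fold minimum, 1 was higher with resveratrol and 1 was lower with sucrose alone. With stearic acid alone 2 were higher and 3 lower. Of all genes, 17.7% passed in either direction with resveratrol, 18.4% with sucrose alone and 22.6% with stearic acid alone. Of 17 measured moulting and apical matrix genes, 1 in the sucrose-stearic acid group and 5 in the stearic acid group passed the adjusted p against control, each lower by less than 2-fold. Their median log2 fold change was -0.05 in the resveratrol group, -0.12 in the sucrose-stearic acid group, -0.02 with sucrose alone and -0.31 with stearic acid alone, where the medians of all genes were -0.04, -0.03, -0.02 and -0.03.

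Cuticle collagens differed from the moulting genes in the groups with sucrose. In stearic acid alone both lists had a negative median. Of 14 measured named collagens, 5 were called higher in the resveratrol group (dpy-5, dpy-13, rol-6, sqt-1 and sqt-2), 4 in the sucrose-stearic acid group and 3 in the sucrose group, where bli-1 was called lower, and bli-1 and bli-2 were called lower in the stearic acid group. The list also held dpy-18, a subunit of an enzyme that modifies collagen, which was not called in any of these comparisons. Of all genes, 3.82% were called higher in the resveratrol group, 4.31% in the sucrose-stearic acid group and 3.78% in the sucrose group. The 15 genes had a median log2 fold change of 0.36, 0.46 and 0.42 in the same order, and -0.38 in stearic acid alone. There, 9 of the 15 were lower and 0 higher at an adjusted p of 0.05 or less. The summed FPKM of the 14 collagens was 4487 to 5185 in the resveratrol group, 4196 to 5257 in the sucrose-stearic acid group, 3918 to 4357 in the sucrose group, 1850.0 to 1916 in the stearic acid group and 2420.0 to 2794 in the control group. Among 4 measured glial markers, the sheath glia gene vap-1 was called lower in the resveratrol (-1.59 ± 0.28, SE), sucrose-stearic acid (-1.52 ± 0.28) and sucrose (-1.52 ± 0.27) groups. The summed FPKM of the 4 was 36.3 to 46.2 in the resveratrol group, 35.8 to 46.8 in the sucrose-stearic acid group, 39.1 to 48.2 in the sucrose group, 56.8 to 65.3 in the stearic acid group and 40.3 to 74.1 in the control group. In counts scaled to library size, which are not divided by length, no treated group had a sum below the lowest control, with 123 to 155 CPM in the resveratrol group, 126 to 151 in the sucrose-stearic acid group, 138 to 168 in the sucrose group, 151 to 175 in the stearic acid group and 90.97 to 154 in the control group. The glial gene itx-1 was higher at an adjusted p of 0.05 or less, by under 2-fold, in the sucrose-stearic acid (0.57 ± 0.17), sucrose (0.63 ± 0.17) and stearic acid (0.61 ± 0.16) groups. Of 6 measured hypodermis and seam markers, 1 passed the adjusted p, by less than 2-fold, in each of the sucrose-stearic acid, sucrose and stearic acid groups, and their summed FPKM was 199 to 219.6 in the resveratrol group, 199.5 to 231 in the sucrose-stearic acid group, 184 to 199.5 in the sucrose group, 158 to 165 in the stearic acid group and 165 to 203 in the control group. Among markers of neurons, intestine, body wall muscle, pharynx, germline, sperm, oocyte and yolk, the calls against control were the intestinal esterase ges-1, higher in every treated group, the yolk protein gene vit-2, higher in the resveratrol, sucrose and stearic acid groups, and the sperm genes spe-11, lower in the sucrose group, and msp-77, lower in the sucrose-stearic acid group. Passing the adjusted p by under 2-fold were, among others, the intestinal protease gene asp-1, lower in the resveratrol (-0.47), sucrose-stearic acid (-0.56) and sucrose (-0.75) groups, the intestinal gene vha-6, lower in stearic acid (-0.54), the oocyte genes rme-2 and puf-5, lower in the sucrose-stearic acid (-0.67 and -0.70) and stearic acid (-0.70 and -0.63) groups, cbd-1, lower in the sucrose-stearic acid group (-0.76), and the neuronal genes unc-64, egl-3 and ida-1, higher in stearic acid (0.41, 0.82 and 0.51). Summed FPKM of the intestinal markers was 3998 to 4709 in the resveratrol group, 4002 to 4402 in the sucrose-stearic acid group, 3172 to 3562 in the sucrose group, 5105 to 6031 in the stearic acid group and 4516 to 5671 in the control group. Summed FPKM of the neuronal markers was 500.5 to 651 in the resveratrol group, 466 to 630.0 in the sucrose-stearic acid group, 527 to 603 in the sucrose group, 780.0 to 852 in the stearic acid group and 414.7 to 639 in the control group. For the germline markers, summed FPKM was 201 to 264 in the resveratrol group and 207 to 256 in the sucrose-stearic acid group. It was 195 to 270 in the sucrose group, 208 to 229 in the stearic acid group and 268 to 440 in the control group. For oocyte and yolk it was 1635 to 2506 with resveratrol and 1712 to 1809 in the sucrose-stearic acid group. The sucrose group had 2317 to 2794, the stearic acid group 1777 to 2192 and the control group 1549 to 2501. No gene of the marker lists was at 0 in any library. In the germline sums and in the oocyte and yolk sums, control replicate 3 was the highest control. The part of the marker genes in the changes of the family was not tested.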

How the data were processed

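Total RNA of L4 worms was sequenced in 15 libraries. The authors mapped clean reads to WBcel235 with TopHat, and their FPKM values came from Cufflinks. Per the files, the deposited table gives, per gene and library, a raw count and an FPKM value from the authors, and the tool that made the counts and its use of strand are not given in the sources used here. Columns of the authors' own fold changes and FDR values were not used. Counts were tested in R 4.3.3 with edgeR 4.0.16 (filterByExpr, TMM, quasi-likelihood F test on the 6 libraries of each comparison, 12 for the interaction), with Benjamini-Hochberg adjustment over all genes tested, an adjusted p of 0.05 and a 2-fold minimum. FPKM served for levels. SE is the log2 fold change over the root of F. The procedure was also run on counts simulated from its own fitted means and dispersions, which cannot show how a deviant library affects the calls. DESeq2 1.42.0 and limma 3.58.1, on log2(FPKM + 1) and log2(FPKM + 0.1), were alternatives. Gene positions came from the Ensembl annotation of WBcel235, and that of ptc-2 from RefSeq.

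Members and lists were chosen with earlier results of these data known. Library values were given for called members (per series, up to 6 with the largest changes and a mean normalized count of 50 in a group), for up to 10 members called in the other comparisons, for the 3 most abundant per series and for members with known roles. Members given with values outside this rule (grd-8, grd-11, grl-3, grl-5, grl-12, grl-26, ptr-8, ptr-18 and ptr-24) were chosen after their values were seen. List genes were matched by symbol. A planned promoter motif search was not run.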

Additional observations from a re-analysis of the deposited data

Results flagged for a closer look

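The 11 members with an interaction are those in which the change of stearic acid differed between worms with and without sucrose, as tested by the interaction term in edgeR over 12 libraries with 3 per group. Above 0 it was 0.79 for wrt-4, 0.80 for wrt-6, 0.68 for wrt-10, 0.91 for grd-6, 0.90 for grl-5, 0.78 for qua-1 and 0.71 for ptr-18, on the log2 scale. Below 0 it was -1.46 for grl-12, -0.68 for ptr-8, -0.93 for ptr-13 and -0.54 for ptr-24. Adjusted p values ran from 0.00224 for wrt-4 to 0.0392 for qua-1. The interaction of qua-1 passed in 7 of 20 alternatives and that of grl-12 in 11. The 11 were of 69 tested members, where 15.6% of 13094 genes had an interaction, so the share was about that of all genes. The count ran from 6 to 21 when 1 library was left out.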

How the results depend on the processing

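Counts of called members kept within 1.5 times under DESeq2, RLE size factors, no filter on low counts and all 15 libraries in the fit. In stearic acid against control, the 10 calls became 6 at an adjusted p of 0.01, 25 without a fold minimum, 4 with limma on log2(FPKM + 1) and 6 with limma on log2(FPKM + 0.1), and 5 to 14 when 1 library was left out. Without a fold minimum, 23 members were called in the resveratrol group against control and 39 in sucrose against stearic acid. In sucrose-stearic acid against stearic acid, 46 were (28 higher, 18 lower), where 2036 of 12714 genes were higher and 2298 lower. Of all genes, 22.6% then passed in stearic acid against control, 17.7% in resveratrol against control and 24.3% in sucrose against stearic acid. The interaction count was 3 at an adjusted p of 0.01 and 6 to 21 without 1 library. Leaving out 1 library gave 14 to 17 calls in sucrose, 16 to 18 in sucrose-stearic acid and 15 to 17 in resveratrol against control, 14 to 16 in sucrose against stearic acid, 13 to 18 in sucrose-stearic acid against stearic acid, and 0 in the other 2. These are counts of members, and apart from the fits without a fold minimum the share of all genes called was not counted.

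Over 82 named gene and comparison pairs and 1285 alternatives, 1199 kept their call, 86 were in the same direction but not called, and 0 were reversed. The summed member level in stearic acid over control was 0.707 in FPKM and 0.782 in counts scaled to library size.

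Replicate numbers were not used to pair the samples. Deviations of same-numbered libraries had correlations of -0.41 to 0.38 (median -0.01, 7 of 30 over 0.1), and those of other pairs had a median of -0.003. With 3 libraries per group, these values cannot settle whether same-numbered libraries shared a batch. With the replicate number as a block, the calls were 16 in sucrose, 9 in stearic acid, 16 in sucrose-stearic acid and 15 in resveratrol against control, 15 in sucrose against stearic acid, 13 in sucrose-stearic acid against stearic acid, 10 in the interaction and 0 in the other 2. Members with few counts, such as grl-26 and wrt-7, have imprecise fold changes.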
